A study of Homo sapiens with 9 samples.

Results

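RNA polymerase II and the kinases, chaperones and cofactors that carry it from the promoter into the gene body are the subject here, as 41 gene symbols matched exactly to the rows of a table of RNA levels in MOLT4 cells. The members are the 12 subunits of the polymerase, the CDK-activating kinase, the elongation kinase P-TEFb with its 7SK inhibitory particle, the pausing and elongation factors, and the termination exonuclease XRN2. All 41 of 41 symbols had a row among the 23621 gene rows, and 40 of them passed the filter for testing. MOLT4 is an established human T-cell acute lymphoblastic leukaemia line, so every group shares 1 genetic background. There were 9 RNA-seq libraries in 3 groups of 3, all taken at 6 h: cells titled MI-389, cells titled sunitinib, and cells given the solvent dimethyl sulfoxide (DMSO) at 0.1%. Sunitinib is an inhibitor of receptor tyrosine kinases, and MI-389 is known here by its code name only. The series title is about the translation termination factor GSPT1 and degrader molecules.

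The labels disagree on which compound the treated cells received. In the source field, sunitinib at 1 µM is entered for the MI-389 titles, and MI-389 at 0.1 µM for the sunitinib titles. The titles, the column names and the barcode list in the protocol give 1 naming, so the groups follow the titles and are called MI-389-titled and sunitinib-titled throughout. If the source field is right, each statement on one compound belongs to the other. The 2 stated doses differ 10-fold, so a difference between the treated groups is one of compound and dose together. The labels do not say that the replicates were separate cultures, and the p-values then measure only the spread between these libraries, which may be technical.

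RNA polymerase II starts transcription at promoters and usually pauses a short distance downstream, held by the factors DSIF and NELF. P-TEFb, made of CDK9 and a cyclin T, releases it by phosphorylating DSIF, NELF and the carboxy-terminal tail of the largest subunit, POLR2A. The 7SK particle, with HEXIM1, LARP7 and MEPCE, holds P-TEFb inactive, and the super elongation complex and BET bromodomain proteins bring the active kinase to chromatin. FACT, SPT6, TFIIS and the PAF1 complex then help the polymerase through nucleosomes and arrest sites, and CDK12 and CDK13 maintain tail phosphorylation along long genes. T-cell leukaemia cells are known for their sensitivity to inhibitors of this pathway, such as those of CDK7.

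The cells carried the RNA of their lineage. All 10 of 10 T-lineage markers had a mean of at least 1 FPKM (fragments mapped per transcript length and library size), with a summed level of 3972 to 4211 FPKM in MI-389-titled, 4581 to 4841 FPKM in sunitinib-titled and 4222 to 5284 FPKM in DMSO libraries. Of 5 B-cell markers 2 reached a mean of 1 FPKM, with sums of 10.6 to 11.8, 8.97 to 9.65 and 11.7 to 12.8 FPKM in MI-389-titled, sunitinib-titled and DMSO libraries. None of 5 myeloid markers and 1 of 5 epithelial and fibroblast markers did. The DMSO libraries were the most spread: DMSO replicate 1 was the lowest DMSO library for 35 of the 41 members and DMSO replicate 3 the highest for 38. The median coefficient of variation over the 40 tested members was 3.81% in MI-389-titled, 2.55% in sunitinib-titled and 8.24% in DMSO libraries. The part of these differences in the results was not tested. In bulk RNA, fewer cells of a kind and less RNA per cell cannot be told apart.

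Of the 40 tested members, 18 were higher and 13 lower in MI-389-titled than in DMSO libraries at an adjusted p of 0.05, and 9 did not pass (limma on log2(FPKM + 1), Benjamini-Hochberg over 12301 genes). As shares, 45.0% of the members were called higher and 32.5% lower, against 28.5% and 28.3% of all tested genes (56.7% in either direction). The median log2 difference was 0.11 over the members and -0.00 over all tested genes. Of the 40 tested members, 16 were higher without overlap between the libraries of both groups, all among the 18 called higher. The 13 that were lower without overlap were the 13 called lower. Over all tested genes 30.5% were higher and 29.7% lower without overlap, 60.2% in either direction. Of the 13 lowered members 9 were subunits of the polymerase itself, against 1 of the 18 raised ones. The other raised members included kinases, cyclins, elongation cofactors and the 3 protein genes of the inhibitory 7SK particle.

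To show the regulatory sequence of members that moved most in each direction, the 250 bases before the RefSeq transcription start are given for the 2 largest falls and the 2 largest rises among called members with a single listed start. They come from RefSeq on GRCh38.p14, whereas the FPKM values were made on hg19. Each is written 5′ to 3′ on the strand of its gene, and capitals mark matches to the motifs searched. They are SUPT16H at chr14:21384020-21384269 on the minus strand, POLR2B at chr4:56978646-56978895 on the plus strand, AFF4 at chr5:132963635-132963884 on the minus strand and CCNT2 at chr2:134918572-134918821 on the plus strand.
SUPT16H: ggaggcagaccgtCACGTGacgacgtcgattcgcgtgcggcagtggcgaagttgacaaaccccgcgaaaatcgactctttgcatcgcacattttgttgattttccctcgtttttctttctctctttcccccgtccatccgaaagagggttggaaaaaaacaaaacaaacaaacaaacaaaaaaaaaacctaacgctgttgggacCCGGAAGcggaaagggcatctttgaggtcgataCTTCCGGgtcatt
POLR2B: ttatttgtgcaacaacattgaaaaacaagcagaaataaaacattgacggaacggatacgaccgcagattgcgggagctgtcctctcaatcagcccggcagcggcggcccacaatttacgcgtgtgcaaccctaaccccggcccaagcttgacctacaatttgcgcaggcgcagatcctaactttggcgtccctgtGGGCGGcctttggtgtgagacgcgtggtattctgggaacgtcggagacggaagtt
AFF4: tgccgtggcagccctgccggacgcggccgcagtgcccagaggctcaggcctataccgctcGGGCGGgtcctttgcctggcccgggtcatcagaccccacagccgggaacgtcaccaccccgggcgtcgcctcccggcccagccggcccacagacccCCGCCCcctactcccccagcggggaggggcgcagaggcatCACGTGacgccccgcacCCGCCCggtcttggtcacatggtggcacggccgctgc
CCNT2: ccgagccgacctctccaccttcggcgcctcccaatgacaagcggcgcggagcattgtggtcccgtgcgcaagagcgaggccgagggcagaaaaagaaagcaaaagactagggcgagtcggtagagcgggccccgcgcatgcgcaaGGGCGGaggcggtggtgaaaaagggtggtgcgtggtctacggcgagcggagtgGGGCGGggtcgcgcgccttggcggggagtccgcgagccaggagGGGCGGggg
The motifs were searched on both strands in 34 member promoters, using the first listed start of each member. They were also searched in all 35116 listed promoters of the same length, where a gene with several starts is counted several times. The GC box GGGCGG was in 27 of the 34 (79.4%), against 42.6% of all promoters, and it was in 16 of the 17 promoters of risen members and 8 of the 10 of fallen members. The E-box CACGTG was in 5 member promoters (14.7%), against 6.34% of all, and stands in both SUPT16H, which fell, and AFF4, which rose. The ETS motif CCGGAAG was in 7 (20.6%), against 8.52%, and occurs on each strand of the SUPT16H promoter. The TATA motif TATAAA was in the HEXIM1 promoter alone, against 10.7% of all promoters. The cAMP response element TGACGTCA was in 2 member promoters (5.88%), against 1.65%, the AP-1 motif TGACTCA in 0, against 4.20%, and the CARE motif TTGCATCA in 0, against 0.772%. No motif overlapped another in the 4 promoters shown, and a match describes letters only.

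The polymerase subunits were the one group of members that mostly fell. Of the 12, 9 were lower in MI-389-titled than in DMSO libraries, 1 was higher and 2 did not pass; their median log2 difference was -0.34. The number called lower was 9 or 10 and the median was between -0.41 and -0.16 under every alternative run. POLR2B, the second largest subunit and part of the active site, fell most of the subunits. Its level was 80.05, 76.4 and 80.1 FPKM in MI-389-titled, 156, 144 and 151 FPKM in sunitinib-titled and 140.4, 155 and 162 FPKM in DMSO libraries. The MI-389-titled libraries all lay below the other 6, with a log2 difference of -0.94 (SE 0.0611, adjusted p = 2.33e-06).

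POLR2K, a small subunit shared by all 3 nuclear polymerases, was next. It was measured at 116, 109.7 and 117 FPKM in MI-389-titled, 178, 170.2 and 175 FPKM in sunitinib-titled and 183, 199 and 227 FPKM in DMSO libraries. The treated libraries lay below all DMSO libraries in both groups, and the MI-389-titled ones were lowest, with a log2 difference of -0.82 (SE 0.0740, adjusted p = 1.65e-05). POLR2L, another shared subunit, had 193, 188 and 180.4 FPKM in MI-389-titled, 226, 235 and 227 FPKM in sunitinib-titled and 231, 292 and 279.9 FPKM in DMSO libraries. The groups did not overlap between MI-389-titled and DMSO cells, and the log2 difference was -0.51 (SE 0.0809, adjusted p = 0.000526).

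POLR2F and POLR2H, also shared between the polymerases, fell by similar amounts. POLR2F stood at 62.5, 64.1 and 65.6 FPKM in MI-389-titled, 73.4, 73.3 and 72.6 FPKM in sunitinib-titled and 82.6, 91.9 and 97.9 FPKM in DMSO libraries. The 3 groups did not overlap, with MI-389-titled libraries lowest and DMSO libraries highest. POLR2H stood at 182, 169.7 and 181 FPKM in MI-389-titled, 212, 216 and 220.3 FPKM in sunitinib-titled and 216, 256 and 259 FPKM in DMSO libraries. Their log2 differences in MI-389-titled cells were -0.49 (adjusted p = 0.000120) and -0.45 (adjusted p = 0.000540). POLR2G, which forms the stalk of the enzyme with POLR2D, averaged 294 ± 5.46 FPKM in MI-389-titled, 379 ± 12.7 in sunitinib-titled and 382 ± 30.7 in DMSO libraries, where ± is the SD over 3 libraries here and throughout. Its log2 difference was -0.38 (adjusted p = 0.000800), and that of POLR2D, whose levels are given further on, was -0.28 (adjusted p = 0.00451). POLR2E, shared by the polymerases too, averaged 113 ± 5.03 FPKM in MI-389-titled, 125 ± 2.47 in sunitinib-titled and 139.5 ± 15.0 in DMSO libraries, and POLR2I averaged 114 ± 6.89 FPKM in MI-389-titled, 116 ± 7.5 in sunitinib-titled and 141 ± 11.6 in DMSO libraries. They differed by -0.29 and -0.30 on the log2 scale (adjusted p = 0.00865 and 0.00792).

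POLR2A, the largest subunit and bearer of the phosphorylated tail, was the one subunit called higher. It had 61.6, 54.5 and 58.1 FPKM in MI-389-titled, 46.4, 44.2 and 46.2 FPKM in sunitinib-titled and 41.2, 50.7 and 54.8 FPKM in DMSO libraries. The MI-389-titled and DMSO libraries overlapped, DMSO replicate 1 being well below the other DMSO libraries, with a log2 difference of 0.25 (SE 0.0946, adjusted p = 0.0449). The call was lost without MI-389-titled replicates 1 or 3 or DMSO replicates 1 or 2 (adjusted p = 0.0618 to 0.140). Without DMSO replicate 1 the log2 difference was 0.13. The POLR2A call was also lost in limma fits with no filter (adjusted p = 0.117) and with only the compared groups (adjusted p = 0.0888). So it was with a replicate block (adjusted p = 0.0641) and with no variance trend (adjusted p = 0.0578). POLR2C, which pairs with POLR2J in the assembly of the enzyme, averaged 164 ± 8.52 FPKM in MI-389-titled, 139.6 ± 2.53 in sunitinib-titled and 152 ± 11.3 in DMSO libraries and did not pass (log2 difference 0.12, adjusted p = 0.152). It passed under quantile normalization and cyclic loess, at 0.24 and 0.29, and without DMSO replicate 3, at 0.17. POLR2J averaged 334 ± 11.6 FPKM in MI-389-titled, 364 ± 7.22 in sunitinib-titled and 396 ± 60.4 in DMSO libraries and did not pass either (log2 difference -0.23, adjusted p = 0.0666); without DMSO replicate 1 the difference was -0.37 and passed (adjusted p = 4.86e-05). It also passed under median centring, at -0.31, and its sign turned under cyclic loess, to 0.051. POLR2J has near-identical copies, POLR2J2, POLR2J3 and POLR2J4, between which reads could be split, so its level is uncertain.

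**Figure D1:**
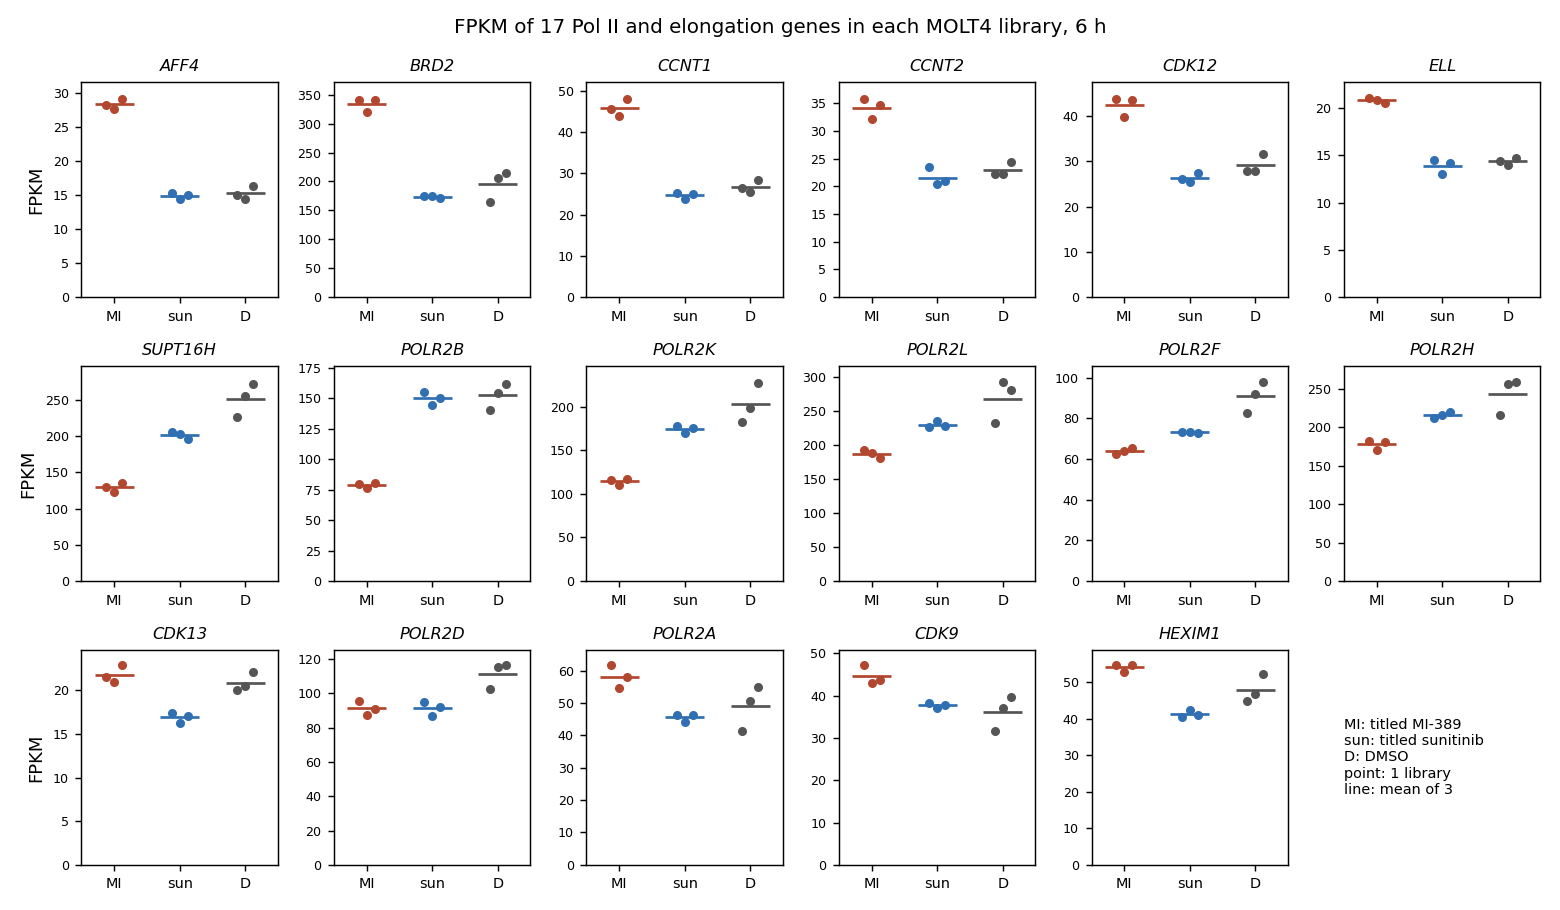
FPKM of 17 members in each library, 1 panel per gene, with MI-389-titled (MI), sunitinib-titled (sun) and DMSO (D) libraries from left to right; points are libraries and lines are means of 3. The MI-389-titled points of the first 6 genes lie above all others, those of SUPT16H, POLR2B, POLR2K, POLR2L, POLR2F and POLR2H lie below all others, and those of POLR2A overlap the DMSO points.

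All 3 genes of P-TEFb were higher in MI-389-titled than in DMSO cells, and they stayed so under every alternative run. CCNT1, which encodes the main cyclin partner of CDK9, was at 45.6, 43.9 and 47.9 FPKM in MI-389-titled, 25.3, 23.9 and 25.1 FPKM in sunitinib-titled and 26.4, 25.5 and 28.4 FPKM in DMSO libraries. The MI-389-titled libraries lay far above the other 6, which stood close together, with a log2 difference of 0.75 (SE 0.0574, adjusted p = 6.04e-06). CCNT2, the alternative cyclin, was at 35.8, 32.2 and 34.7 FPKM in MI-389-titled, 23.5, 20.3 and 20.9 FPKM in sunitinib-titled and 22.2, 22.2 and 24.4 FPKM in DMSO libraries. It showed the same separation, with a log2 difference of 0.56 (SE 0.0702, adjusted p = 0.000123). CDK9 itself, the catalytic subunit, moved less: it was at 47.1, 43.0 and 43.7 FPKM in MI-389-titled, 38.4, 37.1 and 37.7 FPKM in sunitinib-titled and 31.6, 37.0 and 39.7 FPKM in DMSO libraries. Its MI-389-titled libraries lay above all others, with a log2 difference of 0.30 (SE 0.0788, adjusted p = 0.00846).

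The 3 protein genes of the 7SK particle were also called higher. MEPCE, which caps the 7SK RNA, averaged 173 ± 5.27 FPKM in MI-389-titled, 112 ± 1.66 in sunitinib-titled and 129.7 ± 10.9 in DMSO libraries, with a log2 difference of 0.42 (SE 0.0633, adjusted p = 0.000396). HEXIM1, the protein that inhibits P-TEFb when bound to 7SK RNA, was at 54.7, 52.8 and 54.7 FPKM in MI-389-titled, 40.4, 42.3 and 41.1 FPKM in sunitinib-titled and 44.8, 46.7 and 52.1 FPKM in DMSO libraries. The groups did not overlap: MI-389-titled libraries were highest and sunitinib-titled ones lowest, and against DMSO a log2 difference of 0.18 (SE 0.0598, adjusted p = 0.0301) was found for MI-389-titled cells. LARP7, which binds and stabilises the 7SK RNA, averaged 124 ± 2.80 FPKM in MI-389-titled, 112 ± 3.87 in sunitinib-titled and 111 ± 4.69 in DMSO libraries, with a log2 difference of 0.17 (adjusted p = 0.0181). The HEXIM1 call was lost without MI-389-titled replicates 1 or 3 or DMSO replicates 1 or 2 (adjusted p = 0.0666 to 0.0911), and the LARP7 call without MI-389-titled replicates 1 or 3 (adjusted p = 0.0591 to 0.0639). The HEXIM1 call was also lost with only the compared groups fitted.

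In the CDK-activating kinase of TFIIH, which phosphorylates the polymerase tail at initiation, 2 of 3 genes rose. The kinase CDK7 averaged 59.97 ± 0.265 FPKM in MI-389-titled, 44.7 ± 2.25 in sunitinib-titled and 43.4 ± 1.03 in DMSO libraries, a log2 difference of 0.46 (adjusted p = 4.90e-05). Its cyclin CCNH averaged 89.2 ± 1.53 FPKM in MI-389-titled, 65.1 ± 2.66 in sunitinib-titled and 66.1 ± 6.80 in DMSO libraries, a log2 difference from DMSO of 0.43 (adjusted p = 0.000689). Neither gene's MI-389-titled libraries overlapped the DMSO ones. The assembly factor MNAT1 averaged 61.8 ± 2.93 FPKM in MI-389-titled, 52.0 ± 1.32 in sunitinib-titled and 60.1 ± 5.0 in DMSO libraries and did not pass (adjusted p = 0.603).

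The super elongation complex held the largest rise of any member in this fit. AFF4, its scaffold, was at 28.3, 27.6 and 29.05 FPKM in MI-389-titled, 15.3, 14.4 and 15.0 FPKM in sunitinib-titled and 15.1, 14.4 and 16.4 FPKM in DMSO libraries. MI-389-titled libraries lay far above the other groups, which overlapped, with a log2 difference of 0.85 (SE 0.0584, adjusted p = 3.37e-06). ELL, an elongation factor that suppresses pausing, was at 21.0, 20.9 and 20.5 FPKM in MI-389-titled, 14.5, 13.0 and 14.2 FPKM in sunitinib-titled and 14.4, 14.0 and 14.8 FPKM in DMSO libraries. The difference was of 0.50 on the log2 scale (SE 0.0544, adjusted p = 4.72e-05), and the libraries did not overlap. Its relative ELL2 was below the filter of a mean of 1 FPKM and was not tested in this fit. It was listed at 0.346, 0.449 and 0.414 FPKM in MI-389-titled, 0.176, 0.148 and 0.145 FPKM in sunitinib-titled and 0.196, 0.192 and 0.229 FPKM in DMSO libraries, where undetected rows sit near 0.1 FPKM. With no filter, all 3 genes of the complex, ELL2 among them, were called higher in MI-389-titled than in DMSO cells.

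The BET proteins, which bind acetylated histones, moved in opposite directions. BRD2 was at 341, 321 and 341 FPKM in MI-389-titled, 174, 175 and 171 FPKM in sunitinib-titled and 164, 207 and 215 FPKM in DMSO libraries. The MI-389-titled libraries stood well above the DMSO ones, with a log2 difference of 0.78 (SE 0.0909, adjusted p = 7.37e-05). BRD3 averaged 36.6 ± 1.74 FPKM in MI-389-titled, 38.9 ± 0.857 in sunitinib-titled and 45.5 ± 4.06 in DMSO libraries, with a log2 difference of -0.30 (adjusted p = 0.00376).

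The histone chaperone FACT was moved in 1 of its 2 subunits. SUPT16H, the larger one, was at 130.5, 123 and 136 FPKM in MI-389-titled, 206, 203 and 196 FPKM in sunitinib-titled and 226, 255 and 272 FPKM in DMSO libraries. The 3 groups did not overlap, MI-389-titled libraries being lowest and DMSO ones highest, with a log2 difference of -0.94 (SE 0.0711, adjusted p = 5.61e-06). Its partner SSRP1 averaged 396 ± 14.3 FPKM in MI-389-titled, 366 ± 13.2 in sunitinib-titled and 422 ± 52.3 in DMSO libraries and did not pass (log2 difference -0.08, adjusted p = 0.431). The sign for SSRP1 turned with the scaling: it was 0.15 under quantile normalization and 0.21 under cyclic loess, both past the threshold, and -0.19 without DMSO replicate 1 (adjusted p = 0.00374).

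DSIF, the pausing factor that becomes an elongation factor, was likewise split. Its large subunit SUPT5H averaged 117 ± 4.68 FPKM in MI-389-titled, 94.1 ± 0.522 in sunitinib-titled and 97.6 ± 11.6 in DMSO libraries, with a log2 difference of 0.27 (adjusted p = 0.0161). Its small subunit SUPT4H1 averaged 139 ± 4.53 FPKM in MI-389-titled, 163 ± 3.76 in sunitinib-titled and 163 ± 16.1 in DMSO libraries, with a log2 difference of -0.22 (adjusted p = 0.0237). The SUPT5H call was lost without MI-389-titled replicate 3 (adjusted p = 0.0592), and the SUPT4H1 call without MI-389-titled replicates 2 or 3 or DMSO replicate 2 (adjusted p = 0.0517 to 0.0788) and under cyclic loess (-0.034, adjusted p = 0.333). The SUPT4H1 call was also lost with no filter and with only the compared groups fitted. The chaperone SUPT6H averaged 90.4 ± 3.65 FPKM in MI-389-titled, 75.8 ± 0.226 in sunitinib-titled and 79.5 ± 9.34 in DMSO libraries and did not pass (log2 difference 0.19, adjusted p = 0.0635). It passed at 0.24 under quantile normalization, 0.27 under cyclic loess, 0.20 with rescaling to spike-in RNAs and 0.27 without DMSO replicate 3.

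Of the 5 genes of the PAF1 complex, which travels with the polymerase and is needed for histone modification in gene bodies, 3 rose and 1 fell. CDC73 averaged 38.8 ± 1.47 FPKM in MI-389-titled, 25.7 ± 1.01 in sunitinib-titled and 27.8 ± 1.59 in DMSO libraries, with a log2 difference of 0.47 (SE 0.0580, adjusted p = 0.000114). CTR9 averaged 71.4 ± 2.63 FPKM in MI-389-titled, 60.4 ± 1.04 in sunitinib-titled and 62.0 ± 3.43 in DMSO libraries, and PAF1 105 ± 6.86 FPKM in MI-389-titled, 87.5 ± 1.43 in sunitinib-titled and 92.0 ± 7.73 in DMSO libraries. They had log2 differences of 0.20 and 0.19 (adjusted p = 0.0102 and 0.0443), and the PAF1 libraries overlapped between the groups. RTF1 averaged 51.6 ± 0.497 FPKM in MI-389-titled, 54.5 ± 1.24 in sunitinib-titled and 59.8 ± 4.94 in DMSO libraries, a log2 difference of -0.21 (adjusted p = 0.0157). LEO1 averaged 83.5 ± 3.46 FPKM in MI-389-titled, 68.5 ± 3.32 in sunitinib-titled and 77.4 ± 5.22 in DMSO libraries and did not pass (adjusted p = 0.173), though it did under quantile normalization and cyclic loess, at 0.15 and 0.18. The PAF1 call was lost without MI-389-titled replicates 1 or 3 or DMSO replicates 1 or 2 (adjusted p = 0.0701 to 0.158), and the RTF1 call without DMSO replicate 2 (adjusted p = 0.0515). The PAF1 call was also lost with no filter, with only the compared groups fitted, with a replicate block and with no variance trend.

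CDK12, a kinase of the elongating polymerase, was at 43.9, 39.8 and 43.6 FPKM in MI-389-titled, 26.2, 25.4 and 27.4 FPKM in sunitinib-titled and 27.9, 27.9 and 31.7 FPKM in DMSO libraries. Its MI-389-titled libraries lay above all others, with a log2 difference of 0.53 (SE 0.0660, adjusted p = 0.000117). The shared cyclin CCNK averaged 78.0 ± 3.39 FPKM in MI-389-titled, 63.9 ± 1.51 in sunitinib-titled and 69.1 ± 4.68 in DMSO libraries, a log2 difference of 0.17 (adjusted p = 0.0320) that was lost without MI-389-titled replicates 1 or 3 or DMSO replicates 1 or 2 (adjusted p = 0.0595 to 0.114). CDK13, the closest relative of CDK12, was at 21.5, 20.9 and 22.9 FPKM in MI-389-titled, 17.4, 16.3 and 17.1 FPKM in sunitinib-titled and 19.99, 20.5 and 22.1 FPKM in DMSO libraries. Here the sunitinib-titled libraries were the low ones: the log2 difference from DMSO was 0.06 in MI-389-titled cells (adjusted p = 0.404) and -0.28 in sunitinib-titled cells (adjusted p = 0.0114). The CDK13 call was lost without sunitinib-titled replicate 2 (adjusted p = 0.0542). That of CCNK in MI-389-titled cells was also lost with only the compared groups fitted and with a replicate block.

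TCEA1, the TFIIS protein that rescues arrested polymerase, averaged 201 ± 4.58 FPKM in MI-389-titled, 204 ± 6.58 in sunitinib-titled and 224 ± 17.6 in DMSO libraries and did not pass against DMSO in MI-389-titled cells (log2 difference -0.15, adjusted p = 0.0686). Its call and sign turned with the scaling: it was lower under median centring (-0.23) and higher under cyclic loess (0.078), both past the threshold, and 0.028 under quantile normalization. Without DMSO replicate 1 it passed at -0.21. XRN2, the exonuclease that degrades RNA downstream of the cleavage site, averaged 169 ± 7.20 FPKM in MI-389-titled, 151 ± 6.68 in sunitinib-titled and 169 ± 13.1 in DMSO libraries. It did not pass either (adjusted p = 0.98), and its log2 difference of -0.00 was 0.13 and 0.19, past the threshold, under quantile normalization and cyclic loess.

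**Figure D2:**
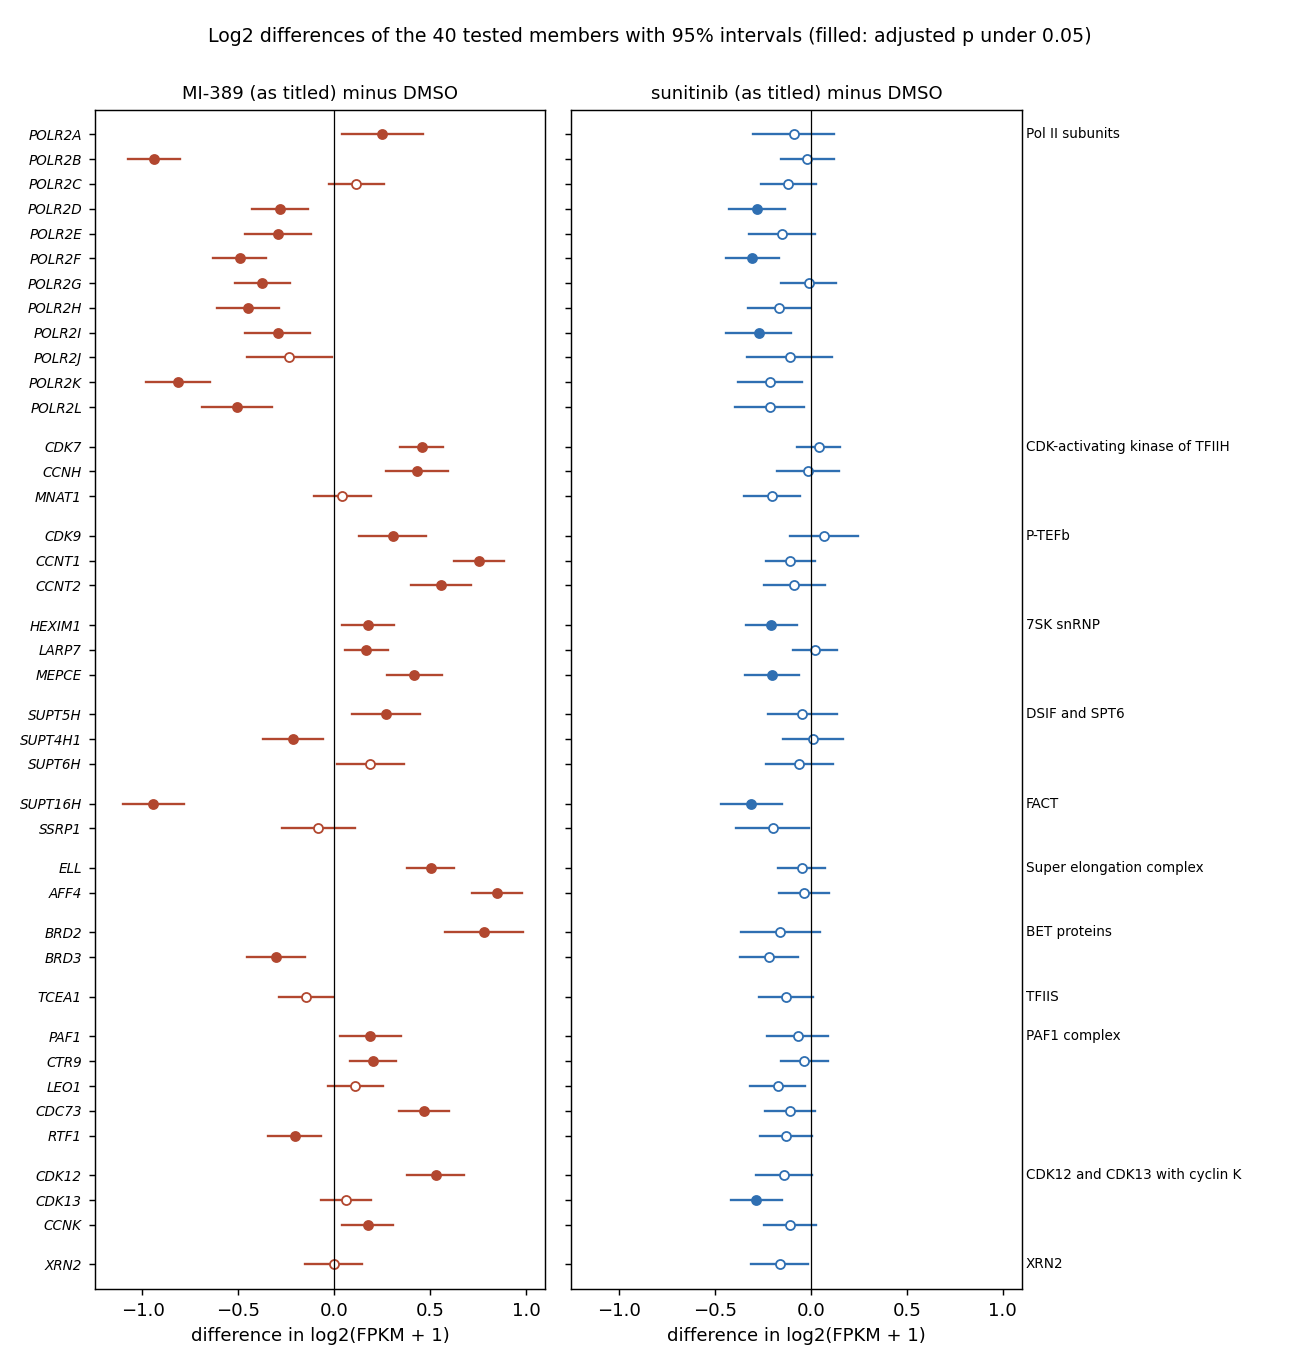
Log2 differences with 95% intervals of the 40 tested members, MI-389-titled minus DMSO at left and sunitinib-titled minus DMSO at right, on the log2(FPKM + 1) scale; rows run by role and filled points passed an adjusted p of 0.05. At left 18 filled points lie right of 0 and 13 left of it, among them 9 of the 12 polymerase subunits; at right all 7 filled points lie left of 0.

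In sunitinib-titled cells none of the 40 tested members was called higher than DMSO (limma) and 7 were called lower, 17.5% of the members. The shares of all tested genes were 2.37% and 16.9% (19.3% in either direction). At an unadjusted p of 0.05, 15 of the 40 members passed, all lower. Of the 12301 tested genes 4219 passed it in either direction. With each library rescaled, 2 (median centring), 6 (quantile normalization) and 7 (cyclic loess) of the 40 members were called higher. Of all tested genes 10.3%, 13.8% and 15.1% were called higher under the same scalings. The median log2 difference was -0.12 over the members and -0.10 over all genes. The members called lower were the subunits POLR2D, POLR2F and POLR2I, HEXIM1 and MEPCE of the 7SK particle, SUPT16H and CDK13. POLR2D was at 95.7, 87.4 and 90.6 FPKM in MI-389-titled, 95.2, 86.9 and 92.3 FPKM in sunitinib-titled and 102, 115 and 117 FPKM in DMSO libraries. Both treated groups lay below the DMSO libraries and overlapped each other, with a log2 difference of -0.28 (SE 0.0655, adjusted p = 0.0180) for sunitinib-titled cells.

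SUPT16H had a log2 difference of -0.31 (SE 0.0711, adjusted p = 0.0167) in sunitinib-titled cells, beside the -0.94 in MI-389-titled cells given above. POLR2F had -0.31 (adjusted p = 0.0109) and POLR2I -0.27 (adjusted p = 0.0348). HEXIM1 and MEPCE had -0.21 and -0.20 (adjusted p = 0.0395 and 0.0499), just inside the threshold. POLR2A and CDK9 did not pass, with log2 differences of -0.09 and 0.07 (adjusted p = 0.534 and 0.572). Without DMSO replicate 1 the POLR2A difference was -0.21 and passed (adjusted p = 0.0298), and that of CDK9 was -0.022. CDK9 was called higher than DMSO once libraries were rescaled. Its difference was 0.16 under median centring, 0.17 under quantile normalization and 0.17 under cyclic loess (limma, adjusted p = 0.0423, 0.0217 and 0.0139).

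The count of 7 rested on single libraries. Leaving out DMSO replicates 1, 2 and 3 in turn gave 24, 2 and 3 members, and leaving out sunitinib-titled replicates 1, 2 and 3 in turn gave 4, 1 and 2. The background moved alike, from 32.1% of all genes called lower without DMSO replicate 1 to 6.55% without sunitinib-titled replicate 2. Calls were lost for POLR2D without sunitinib-titled replicates 2 or 3 or DMSO replicates 2 or 3 (adjusted p = 0.0513 to 0.0798), for POLR2I without sunitinib-titled replicates 1, 2 or 3 or DMSO replicates 2 or 3 (adjusted p = 0.0503 to 0.112), and for SUPT16H without sunitinib-titled replicates 2 or 3 or DMSO replicate 2 (adjusted p = 0.0536 to 0.0702). They were lost for HEXIM1 without sunitinib-titled replicates 1, 2 or 3 or DMSO replicates 2 or 3 (adjusted p = 0.0700 to 0.118), and for MEPCE without sunitinib-titled replicates 1, 2 or 3 or DMSO replicates 2 or 3 (adjusted p = 0.116 to 0.141). POLR2F passed in each of these fits. The calls of POLR2I, HEXIM1 and MEPCE were also lost with no filter, with only the compared groups fitted and with a replicate block. Scaling cut the differences of HEXIM1 to between -0.12 and -0.097 and those of MEPCE to between -0.12 and -0.069 under median centring, quantile normalization and cyclic loess. HEXIM1 then missed the threshold under the last 2 and MEPCE under the first, and POLR2I missed it under quantile normalization (-0.13) and cyclic loess (-0.14). Both comparisons share the 3 DMSO libraries.

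The treated groups were also set against each other, which involves no DMSO library. In MI-389-titled against sunitinib-titled cells 23 of the 40 members were higher and 8 lower, 57.5% and 20%, against 36% and 20.3% of all tested genes (56.3% in either direction). The median was 0.24 over the members and 0.08 over all genes. The largest differences were in BRD2 (0.94, adjusted p = 2.35e-05), AFF4 (0.88, adjusted p = 2.69e-06) and CCNT1 (0.86, adjusted p = 2.84e-06), all higher, and in POLR2B (-0.92, adjusted p = 2.76e-06), which was lower. Every gene of the CDK-activating kinase, of P-TEFb, of the 7SK particle and of the CDK12 and CDK13 group was called higher, 3 of 3 in each. Of the 12 polymerase subunits 6 were called lower and 2 higher. Their median was -0.17, beside -0.34 in MI-389-titled against DMSO cells. The direct call of CDK9 (0.23, adjusted p = 0.0286) was lost without MI-389-titled replicates 1 or 3 or sunitinib-titled replicates 1, 2 or 3 (adjusted p = 0.0562 to 0.103). It was 0.069 under median centring, 0.073 under quantile normalization and 0.098 under cyclic loess, and passed under none of these scalings (adjusted p = 0.224, 0.171 and 0.0608), so that 2 of 3 P-TEFb genes were then called. That of LARP7 (0.15) was lost without MI-389-titled replicates 1 or 3 or sunitinib-titled replicates 2 or 3 (adjusted p = 0.0900 to 0.123), and under median centring its sign turned to -0.020. Median centring also ended the direct calls of POLR2C (0.067), SUPT6H (0.084) and PAF1 (0.092). The direct calls of CDK9 and SUPT6H were lost with no filter too, and those of CDK9 and LARP7 with a replicate block.

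Sorted by all 3 comparisons, 16 members were higher than both other groups in MI-389-titled cells with no call in sunitinib-titled cells. A further 6 were lower than both others without a sunitinib call. Such patterns were not counted over all tested genes, so these counts only describe the members. Taken singly, 28.5% of all genes were higher in MI-389-titled than in DMSO cells and 36% higher than in sunitinib-titled cells. The shares lower were 28.3% and 20.3%. HEXIM1 and MEPCE were called higher than DMSO in MI-389-titled cells and lower in sunitinib-titled cells, and their direct differences were 0.38 and 0.62 (adjusted p = 0.000471 and 3.25e-05). POLR2F and SUPT16H were lower than DMSO in both and lower in MI-389-titled than in sunitinib-titled cells, with log2 differences of -0.19 and -0.63. POLR2D and POLR2I were lower than DMSO in both, and the treated groups differed by -0.00 (95% interval -0.15 to 0.14) and -0.02 (95% interval -0.19 to 0.15). Under median centring these differences were -0.17 and -0.19, and both passed. POLR2J, SSRP1, TCEA1 and XRN2 passed in none of the 3 comparisons. The direct call of POLR2F was lost without MI-389-titled replicates 1 or 2 or sunitinib-titled replicates 1, 2 or 3 (adjusted p = 0.0619 to 0.0862). Those of SUPT4H1 and SUPT6H were lost as well, SUPT4H1 without MI-389-titled replicates 2 or 3 or sunitinib-titled replicates 1 or 2 (adjusted p = 0.0509 to 0.0643), and SUPT6H without MI-389-titled replicates 1 or 3 or sunitinib-titled replicates 1, 2 or 3 (adjusted p = 0.0529 to 0.0746).

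Because FPKM divides by transcript length, levels of partner genes can be set against each other within a library. The pairs below were picked after their values had been seen, so the ratios are a description and carry no test. POLR2A to POLR2B was 0.769, 0.713 and 0.725 in MI-389-titled, 0.298, 0.306 and 0.307 in sunitinib-titled, and 0.293, 0.328 and 0.338 in DMSO libraries. The MI-389-titled libraries stood apart, with a mean of 0.736 ± 0.0296, against 0.320 ± 0.0234 in DMSO (SD, n = 3 each). SUPT16H to SSRP1 averaged 0.327 ± 0.0104 in MI-389-titled, 0.552 ± 0.0119 in sunitinib-titled and 0.597 ± 0.0319 in DMSO libraries. SUPT5H to SUPT4H1 averaged 0.841 ± 0.0232, 0.576 ± 0.0107 and 0.600 ± 0.0344 in MI-389-titled, sunitinib-titled and DMSO libraries. In each of these pairs the MI-389-titled libraries lay outside the range of all others. CCNT1 to CDK9 averaged 1.03 ± 0.0647 in MI-389-titled, 0.657 ± 0.0117 in sunitinib-titled and 0.748 ± 0.0783 in DMSO libraries, and BRD2 to BRD3 averaged 9.13 ± 0.358, 4.46 ± 0.0504 and 4.28 ± 0.344 in the same order.

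**Figure D3:**
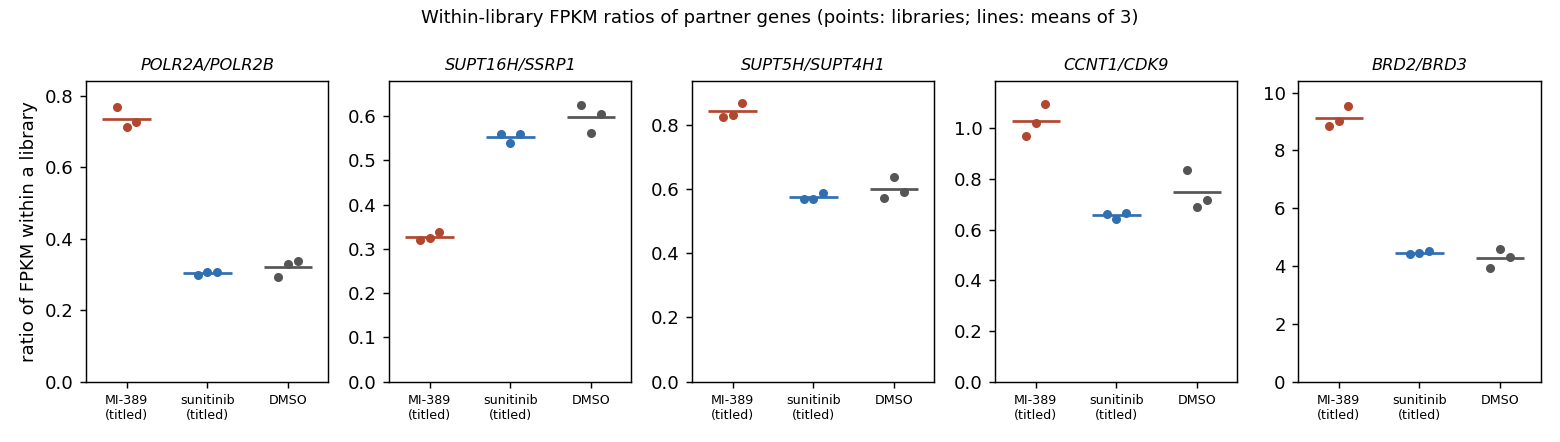
Ratio of the FPKM of 5 pairs of partner genes within each library, with MI-389-titled, sunitinib-titled and DMSO libraries from left to right; points are libraries and lines are means of 3. The POLR2A to POLR2B ratio is 0.713 to 0.769 in MI-389-titled libraries and at most 0.338 in all others, whereas SUPT16H to SSRP1 is lowest in MI-389-titled libraries.

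Other genes of the transcription machinery, 139 in 10 lists, were read from the same fit, and values given beside these genes are log2 differences on the log2(FPKM + 1) scale. In MI-389-titled against DMSO cells 45 were higher and 43 lower, 32.4% and 30.9%, near the 28.5% and 28.3% of all tested genes, with a median of 0.02. Among 18 genes of cleavage and polyadenylation 10 were lower and 2 higher, against 28.3% and 28.5% of all genes, with a median of -0.26 that kept its sign under every scaling. CPSF6 (-0.61) and CSTF3 (-0.42) were lower and FIP1L1 (0.38) was higher. Among 17 other elongation factors 8 were higher and 5 lower: EAF1 (0.88) and EAF2 (0.52), which bind ELL, rose, as did ZC3H8 (0.92), a partner of the little elongation complex. Of the 4 NELF genes NELFB alone passed, at -0.46.

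Integrator, which cleaves nascent RNA and attenuates paused polymerase, had 5 of 14 genes higher and 5 lower, against 28.5% and 28.3% of all genes. INTS6 was at 54.3, 52.3 and 55.3 FPKM in MI-389-titled, 21.8, 18.9 and 20.5 FPKM in sunitinib-titled and 20.7, 21.8 and 21.8 FPKM in DMSO libraries. The MI-389-titled libraries lay above all others, with a log2 difference of 1.29 (SE 0.0590, adjusted p = 3.05e-07). INTS12 rose by 0.79 and INTS10 differed by -0.52. Mediator had 12 of 32 genes higher and 9 lower, also near those shares, with MED13 at 0.68, MED21 at -0.76 and MED28 at -0.50. The general transcription factors had 6 of 14 higher and 2 lower, with GTF2H3 at 0.64, GTF2F2 at 0.31 and GTF2H5 at -0.60. The TFIID subunits had 6 of 14 higher and 3 lower, led by TAF7 (0.44), TAF2 (0.42) and TAF9 (0.36). Of 8 phosphatases and binders of the polymerase tail, RPAP2 rose (0.77) and CTDSP1 (-0.89) and CTDSPL (-0.83) fell; 2 were higher and 3 lower in all.

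Of 15 subunits that belong to polymerases I and III and not to polymerase II, 4 were higher and 4 lower in MI-389-titled than in DMSO cells, with a median of 0.02. POLR3C (0.92) and POLR3F (0.86) rose. POLR2J4 was called lower (-0.21, adjusted p = 0.0477) among 3 copies of POLR2J, and its call was lost without MI-389-titled replicates 1, 2 or 3 or DMSO replicates 2 or 3 (adjusted p = 0.0630 to 0.155). The POLR2J4 call was also lost with no filter, with only the compared groups fitted, with a replicate block and with no variance trend. The rule for naming gave 26 calls in these lists for MI-389-titled cells, and the other 25 passed with each library left out in turn.

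In sunitinib-titled cells 2 of the 139 genes were higher and 29 lower, 1.44% and 20.9%, against 2.37% and 16.9% of all genes. The subunits of polymerases I and III had 8 of 15 lower and cleavage and polyadenylation 7 of 18; without single libraries these counts ran between 4 and 12 and between 3 and 13. The same rule gave 21 calls here, of which 9 passed with each library left out in turn. These were POLR1B (-0.37), POLR3G (-0.59), POLR3K (-0.49), CPSF6 (-0.33), CSTF2 (-0.40), CSTF3 (-0.30), TAF4B (-0.51) and EAF2 (-0.46), all lower, and CTDSP2 (0.28), which was higher. The other 12 included NELFA, GTF2A1, GTF2E2, TAF3, TAF5, MED4, MED26, INTS7, ASUN (the Integrator subunit INTS13) and CTDSPL, lower, and RECQL5, higher. All 12 were lost without sunitinib-titled replicate 3 and 11 of them without replicate 2, with 3, 5 and 3 lost without DMSO replicate 2, DMSO replicate 3 and sunitinib-titled replicate 1. The adjusted p of the lost calls was 0.0506 to 0.132.

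**Figure D4:**
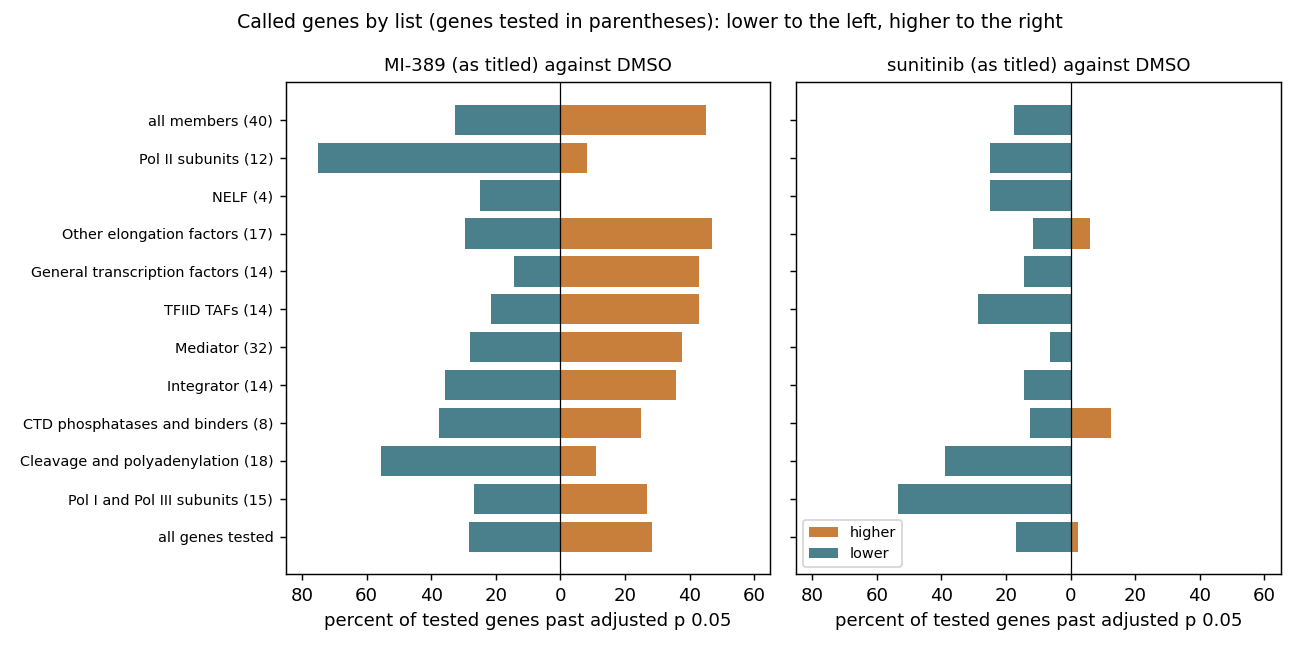
Percent of tested genes in each list called lower (left of 0) and higher (right of 0) at an adjusted p of 0.05, for MI-389-titled against DMSO at left and sunitinib-titled against DMSO at right; the bottom bar is all 12301 genes tested. The polymerase II subunits have the longest bar to the left among the lists in MI-389-titled cells, 75% lower and 8.33% higher, while all members together stand at 32.5% lower and 45.0% higher.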

How the data were processed

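RNA of MOLT4 cells was taken at 6 h in 9 samples, 3 groups of 3. Per the labels' protocols, RNA was isolated with a miRvana kit, ERCC spike-in RNA was added by cell number, and the polyadenylated fraction was sequenced after SMARTer v4 low-input amplification. That chemistry is not stranded, and overlapping or antisense genes share reads. The submitters' processing notes list HISAT, Cufflinks 2.0.0 and hg19, without settings. How libraries were normalized to each other is not stated in those sources. The authors deposited FPKM values, 1 row per symbol, for 23621 genes and 92 spike-in RNAs. There are no counts, so depth is unknown and no counting interval is given.

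The 12301 genes averaging 1 FPKM or more entered a limma 3.58.1 fit (R 4.3.3) of log2(FPKM + 1), with all 9 libraries in 1 model, a variance trend and no block, and two-sided p-values adjusted over all tested genes. The fit assumed 1 spread per gene for the 3 groups, though DMSO libraries varied most among the members. With the compared libraries alone, 8.75% of all genes were called lower in sunitinib-titled than in DMSO cells, against 16.9%. That fit also held fewer libraries. Differences on the log2(FPKM + 1) scale understate the change of low genes. No pair of libraries held identical values, and the deviations of same-numbered libraries correlated weakly, at -0.042 to 0.11. Members, lists and promoter choices were made with earlier results of these data known. Library values are printed for members called without overlap among the 6 largest rises and 6 largest falls against DMSO in MI-389-titled cells or the 4 largest each way in sunitinib-titled cells, and for POLR2A, CDK9 and HEXIM1; up to 3 called genes with the smallest adjusted p are named per context list. Some genes that this rule names are not reported here. INTS6 levels and the values of POLR2J, SSRP1 and XRN2 were added after they were seen. Older symbols were matched through RefSeq names. Alternatives were other pseudocounts, filters, scalings, variance models, a replicate block and each library left out in turn.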

Additional observations from a re-analysis of the deposited data

Results flagged for a closer look

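HEXIM1 and MEPCE, both of the 7SK particle, were called in opposite directions against DMSO in the treated groups, and the direct test of the difference passed for both. Members were flagged only where both conditions held, so the direct test adds no separate support. HEXIM1 was 0.38 higher in MI-389-titled than in sunitinib-titled cells on the log2 scale (limma, adjusted p = 0.000471), with log2 differences from DMSO of 0.18 and -0.21. MEPCE was 0.62 higher (adjusted p = 3.25e-05), with log2 differences from DMSO of 0.42 and -0.20 in MI-389-titled and sunitinib-titled cells. For both genes all 3 MI-389-titled libraries lay above the DMSO libraries and all 3 sunitinib-titled ones below them. The calls against DMSO in sunitinib-titled cells were lost when single libraries were left out, as given above, and under median centring, quantile normalization and cyclic loess the differences were between -0.12 and -0.097 (HEXIM1) and between -0.12 and -0.069 (MEPCE). The HEXIM1 call in MI-389-titled cells was lost without MI-389-titled replicates 1 or 3 or DMSO replicates 1 or 2 (adjusted p = 0.0666 to 0.0911) and with the compared libraries alone (adjusted p = 0.0706). The stated doses differ, so compound and dose cannot be told apart.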

How the results depend on the processing

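In MI-389-titled against DMSO cells the members called higher numbered 12 to 24 and those called lower 11 to 16 over all alternatives, beside 18 and 13, and 23 of 31 member calls passed in every one. Of 7 sunitinib calls 1 passed in every alternative, and of 31 between the treated groups 24 did. The 7 members called lower in sunitinib-titled cells became 4 with no filter, 3 with the compared libraries alone, 11 with robust variance, and 1 to 24 with single libraries left out. The 0 of 40 called higher there became 2 with median centring, 6 with quantile normalization and 7 with cyclic loess. The share of all tested genes called higher went from 2.37% to 10.3%, 13.8% and 15.1%. The 8 of 40 called lower between the treated groups became 15 with median centring, which moved the median of all genes from 0.08 to -0.08. The share of all genes called lower went from 20.3% to 39.5%. Scaling also moved the share of higher among called genes: 50.2% to 39.4% with median centring in MI-389-titled against DMSO cells, 12.3% to 40.5% (median centring), 46.1% (quantile) and 48.6% (loess) in sunitinib-titled against DMSO cells, and 63.9% to 40.3%, 46.1% and 50.2% between the treated groups by the same scalings. Same-numbered libraries correlated at -0.042 to 0.11 in their deviations, and differently numbered ones at -0.216 to 0.134. Between the treated groups the same-numbered values were 0.070, 0.112 and 0.039, above the differently numbered ones, which reached 0.025. These weak correlations do not settle whether the numbers pair the libraries. With the replicate block, MI-389-titled cells had 15 higher and 13 lower, sunitinib-titled cells 0 and 4, and the treated groups 21 and 8. Not every sample correlated best with its own number. Of 2088 alternatives to called single-gene values 179 missed the threshold and 1 turned sign, LARP7 between the treated groups with median centring (-0.020). Member values that were not called turned sign in 83 of 918 alternatives. Among them, with median centring, were MNAT1 -0.036 and CDK13 -0.019. With quantile normalization there were SSRP1 0.15, XRN2 0.13, TCEA1 0.028, CDK13 -0.045 and, in sunitinib-titled cells, POLR2A 0.016; with cyclic loess SSRP1 0.21, XRN2 0.19, POLR2J 0.051, TCEA1 0.078, CDK13 -0.045 and POLR2A in sunitinib-titled cells 0.021. Between the treated groups POLR2D was 0.0043 with spike-in rescaling, and with single libraries left out POLR2D was -0.039 to 0.027 and POLR2I -0.072 to 0.027. MNAT1 was -0.015 (without DMSO replicate 1) to 0.10 with single libraries left out. XRN2 was 0.0048 with spike-in rescaling and -0.062 to 0.050 with single libraries left out, positive without DMSO replicates 2 (0.0032) and 3 and MI-389-titled replicate 2 (0.032). CDK9 in sunitinib-titled cells was -0.022 (without DMSO replicate 1) to 0.14 with single libraries left out. The cause of these changes was not tested. Where a treated or DMSO group was left with 2 libraries, it was assumed to vary like the others. Depth is unknown, and ELL2, near the level of undetected rows, was tested with no filter only. It was then called higher in MI-389-titled cells than in both other groups.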
